A study of Mus musculus with 9 samples.

Results

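The 10 genes described here are members of the Bcl2 family, which sets whether a cell survives or dies through its mitochondria. They are Bcl2, Bcl2l1, Mcl1 and Bcl2a1b on the survival side, and Bax, Bak1, Bcl2l11, Bbc3, Pmaip1 and Bid on the death side. They were chosen by gene symbol, and all 10 were found among the 24346 genes listed for every library. RNA-seq had been done on B cells sorted from the spleens of C57BL6 wild-type mice, with 3 libraries in each of 3 groups. FO B (Young) were follicular B cells, the main recirculating B cells of the spleen, of mice 8 weeks old. FO B (Aged) were follicular B cells of mice 50 weeks old. ABCs (Aged) were age-associated B cells, a subset that accumulates with age and in autoimmunity, of mice 50 weeks old. None of the groups carried a transgene or received a treatment. Both cell types were sorted as B220hi CD43- CD21lo cells, follicular B cells as CD23+ and ABCs as CD23- CD11b+ CD11c+. Each group is stated to come from 3 mice. The labels do not say whether an aged mouse gave both a follicular and an ABC library.

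The Bcl2 family works by binding between its members. BCL2, BCL-XL (from Bcl2l1), MCL1 and A1 (from the Bcl2a1 genes) hold the death proteins in check. BAX and BAK (from Bak1) are the effectors that form pores in the outer mitochondrial membrane, after which cytochrome c leaks out and caspases are activated. The BH3-only proteins BIM (from Bcl2l11), PUMA (from Bbc3), NOXA (from Pmaip1) and BID carry stress signals to the other members. They bind the survival proteins with different preferences, and NOXA binds mainly MCL1 and A1. In B cells, signals from the receptor for BAFF and from the B cell receptor are known to sustain survival through this family.

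The values are FPKM, which set the reads of a gene against its transcript length and the depth of its library. FPKM is thus per length, and levels of different genes can be set side by side. Sequencing depth, approximated from the FPKM steps that single reads leave in low genes, was 7530000 to 9150000 mapped reads per library, and 10032 to 10445 genes reached 1 FPKM. Fcer2a, which encodes CD23, was at 697 to 1036 FPKM in the 6 follicular libraries and at 0.463 to 6.95 FPKM in ABCs. Cr2, which encodes CD21, was at 127 to 166 FPKM in the follicular libraries and at 0.745 to 8.39 FPKM in ABCs, although both cell types were gated as CD21lo. Itgam, Itgax and Tbx21, which encode CD11b, CD11c and the ABC factor T-bet, summed to 278 to 292 FPKM in ABCs and to at most 9.34 FPKM elsewhere. The 6 B lineage markers, Cd79a highest, summed to 8103 to 8554 FPKM in follicular libraries and to 8343, 8797 and 6528 FPKM in ABCs (Aged) replicates 1, 2 and 3. ABC replicate 3 stood apart from its group, with a mean correlation to the other ABC libraries of 0.961, against 0.969 to 0.976 for the other 8 libraries within their groups. For each member tested, the comparisons with ABCs are given with and without it. Genes were tested with limma on log2(FPKM + 1) in the 6 libraries of the groups compared, with genes that averaged 1 FPKM or more, and a gene was called where its FDR, the p-value adjusted by the Benjamini-Hochberg method over all genes tested, was under 0.05. These p-values measure the spread between the libraries of a group. In bulk RNA, fewer cells that express a gene and less of its RNA per cell cannot be told apart.

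The A1 proteins are encoded by near-identical genes on mouse chromosome 9, and Bcl2a1b was the only one among the 10 members. The start of the coding sequence is shown for the 3 expressed copies, because even there few bases tell their reads apart. It was chosen because no other stretch of 100 coding bases differs at more positions. Shown are coding bases 1 to 100, close to the length of a read, on mm10 (GRCm38), and capitals mark the 7 positions at which the copies differ.
Bcl2a1a, chr9:88957051-88957150, plus strand: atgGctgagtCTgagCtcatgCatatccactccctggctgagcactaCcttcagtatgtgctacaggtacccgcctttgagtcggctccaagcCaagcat
Bcl2a1b, chr9:89199360-89199459, plus strand: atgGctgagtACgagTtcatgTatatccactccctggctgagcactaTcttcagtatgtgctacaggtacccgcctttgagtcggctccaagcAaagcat
Bcl2a1d, chr9:88731620-88731719, minus strand: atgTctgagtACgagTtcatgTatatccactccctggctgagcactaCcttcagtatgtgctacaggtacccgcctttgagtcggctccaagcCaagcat
Over the whole coding sequence of 519 bases, 12 positions differed among the 3 copies. Bcl2a1b differed from Bcl2a1a at 11 positions (97.9% identity) and from Bcl2a1d at 6 (98.8% identity). Of 420 stretches of 100 coding bases, 118 were the same in all 3 copies. In the longest transcript of Bcl2a1b, 31.1% of all stretches of 100 bases also occurred in another copy. For Bcl2a1a this was 43.5% and for Bcl2a1d 54.7%. The split of reads among the copies is therefore uncertain, and their sum is given beside each.

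The copies also had near-identical promoters in RefSeq (GRCm38.p6). A stretch of 68 bases is shown from each, read along the gene, to show how alike the copies are. Each copy was called higher in ABCs than in FO B (Aged), but the split of reads among them is uncertain. A link of the promoters to these levels was not tested. Capitals mark GAGGAAGT, the core letters bound by the ETS factor PU.1, a motif chosen after the sequences were seen.
Bcl2a1a, chr9:88956786-88956853, plus strand: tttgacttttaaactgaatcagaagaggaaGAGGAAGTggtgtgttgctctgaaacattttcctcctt
Bcl2a1b, chr9:89199095-89199162, plus strand: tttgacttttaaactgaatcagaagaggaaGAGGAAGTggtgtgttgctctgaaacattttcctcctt
Bcl2a1d, chr9:88731917-88731984, minus strand: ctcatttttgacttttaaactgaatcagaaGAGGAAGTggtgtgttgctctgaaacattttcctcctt
The motif lay 104, 148 and 104 bases before the RefSeq start of Bcl2a1a, Bcl2a1b and Bcl2a1d. Searched on both strands, GAGGAAGT occurred in 3.20% of 32851 RefSeq promoters of the same length, and among the other members it occurred in the promoter of Bak1. A forkhead type motif, TGTTTAC, was found on either strand in 3.65% of promoters, and among the members in 1 of the annotated promoters each of Bcl2l11 and Bbc3. Neither motif contains the other. No promoter of Pmaip1 was searched. A match describes the letters of a window and not the binding of a factor.

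Mcl1 had the highest mean level of the 10 genes in every group, and Bak1 and Bbc3 had the lowest. In FO B (Young), Mcl1 averaged 252 ± 2.33 FPKM (SD, n = 3), above at least 96.0% of the genes at 1 FPKM or more in each library. It was followed by Bax at 120.3 ± 8.8, Bcl2a1b at 78.4 ± 2.5, Bcl2 at 72.5 ± 2.89 and Bid at 57.1 ± 2.53 FPKM. Then came Pmaip1 at 11.2 ± 1.82, Bcl2l11 at 9.85 ± 0.679, Bcl2l1 at 2.81 ± 0.356, Bak1 at 0.737 ± 0.157 and Bbc3 at 0.598 ± 0.255 FPKM. In this order, Pmaip1 and Bcl2l11 overlapped, as did Bak1 and Bbc3, whereas all other neighbours were separate over their 3 libraries. In FO B (Aged) the order was the same, and Bcl2 and Bid overlapped, as did Bcl2l1, Bak1 and Bbc3 with their neighbours. In ABCs the top of the order was compressed. Mcl1 at 153 ± 42.2, Bcl2a1b at 138 ± 26.8 and Bax at 118 ± 9.6 FPKM overlapped with their neighbours there. By the means, Bcl2a1b stood before Bax. In ABC replicate 3, Mcl1 was at 104 FPKM, below Bax at 111 and Bcl2a1b at 108 FPKM.

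**Figure D1:**
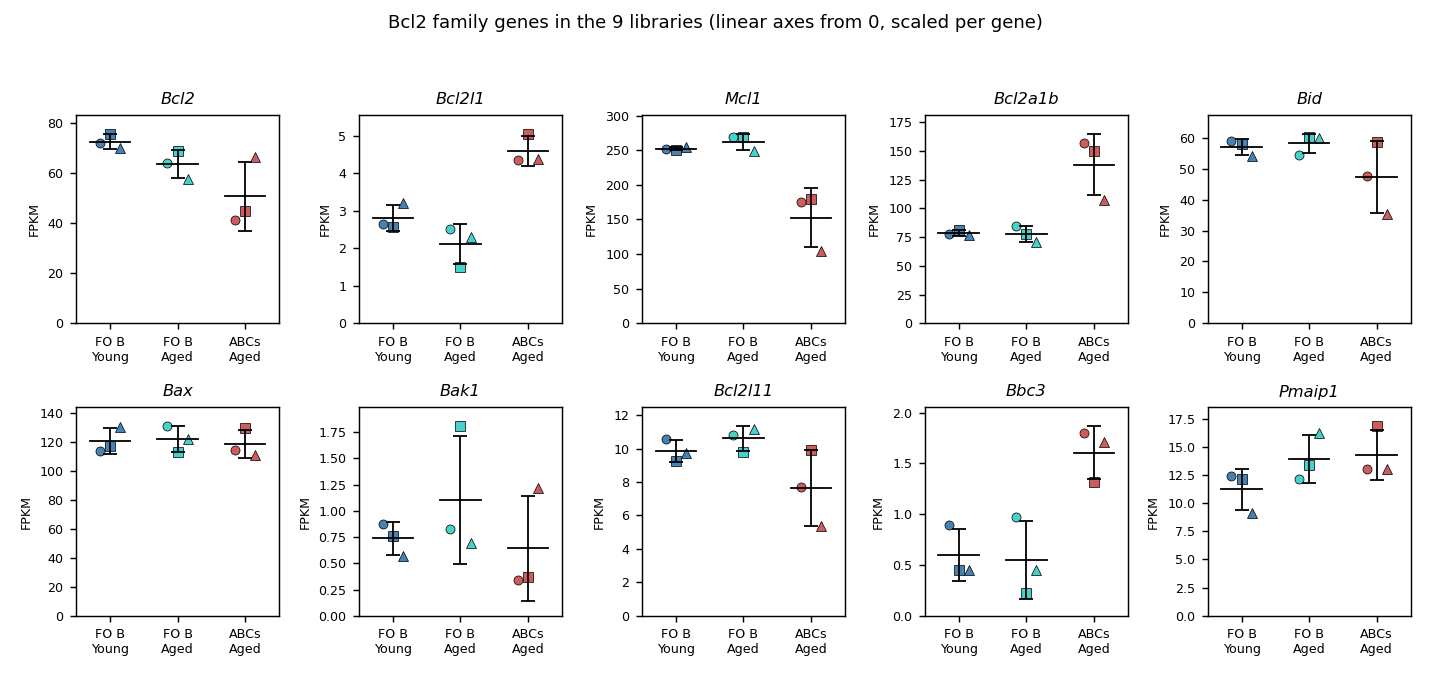
FPKM of the 10 genes in the 9 libraries, on linear axes that start at 0 and are scaled per gene, with replicates 1, 2 and 3 as circle, square and triangle, the group mean as a line and the SD as bars. The 3 ABC libraries lay above all 6 follicular libraries for Bcl2a1b, Bcl2l1 and Bbc3, and below them for Mcl1.

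Bcl2a1b, Bcl2l1 and Bbc3 were higher, and Mcl1 lower, in ABCs than in follicular B cells of the same age. Of the 9 members tested, 3 were thus called higher and 1 lower, where 19.4% of all 10412 genes tested were called higher and 16.5% lower. In either direction, 44.4% of the tested members were called beside 35.9% of all genes, so the share called is near that of all genes. The median log2 fold change of the 9 was -0.043, beside -0.011 for all genes tested. The same 4 members did not overlap between the groups, beside 52.6% of all genes tested. Bak1 was not tested, since its mean was under 1 FPKM, and Bbc3 passed that filter only through the ABC libraries. Among the other 8 members, 2 were higher and 1 lower, with a median log2 fold change of -0.18.

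Among the survival genes, Bcl2a1b was at 157, 149.8 and 108 FPKM in the ABC libraries and at 84.6, 77.8 and 71.1 FPKM in FO B (Aged). All 3 ABC libraries were above all follicular libraries, and the lowest was replicate 3. The log2 fold change was 0.80 ± 0.15 (SE, FDR 0.00563), with an FDR of at most 0.0261 on leaving out any 1 library, and it was 0.97 (FDR 0.000193) without ABC replicate 3. With no filter on low values the FDR was 0.0597. The copy Bcl2a1d was at 51.2, 54.5 and 55.6 FPKM in ABCs and at 20.04, 22.7 and 17.9 FPKM in FO B (Aged), a log2 fold change of 1.37 ± 0.10 (SE, FDR 0.000113). For Bcl2a1a, 22, 48 and 37 reads in the ABC libraries stood against 0, 2 and 0 in FO B (Aged) and 2, 0 and 0 in FO B (Young). At 4.60, 9.09 and 7.68 FPKM, Bcl2a1a was the lowest of the 3 copies in ABCs. Its log2 fold change of 2.84 (FDR 0.000283) depends on the pseudocount, and the gene passed the filter of 1 FPKM only through the ABC libraries. Bcl2a1c had at most 2 reads in any library.

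Summed over the 3 copies, the A1 genes reached 199 ± 24.5 FPKM in ABCs against 98.2 ± 8.17 FPKM in FO B (Aged) (SD, n = 3), a ratio of means of 2.03. The log2 fold change of the sum was 1.01 ± 0.11 (SE, FDR 0.000597), and 0.94 to 1.11 without any 1 library. Bcl2a1b made up 77.1% to 81.1% of the sum in the 6 follicular libraries and 73.8%, 70.2% and 63.0% in the ABC libraries. A test of the sum was added after the data were seen. In ABCs the summed FPKM of 12 immediate-early genes, Fos highest, was also higher, at 1805 to 2854 against 1230 to 1402 FPKM. Of the 12, 8 were called higher and 1 lower, beside 19.4% and 16.5% of all genes tested. The part of these genes in the A1 result was not tested.

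**Figure D2:**
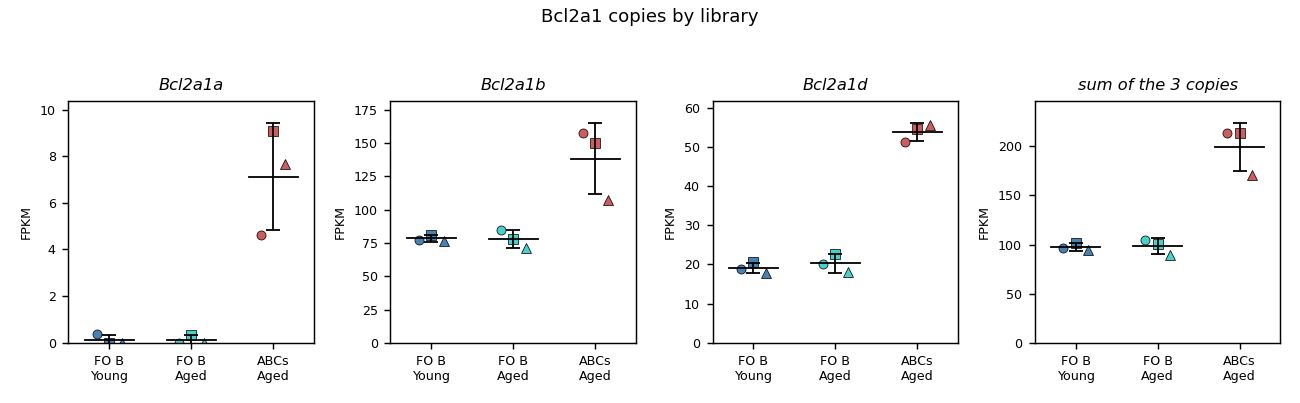
FPKM of Bcl2a1a, Bcl2a1b, Bcl2a1d and their sum in the 9 libraries, on linear axes from 0 scaled per panel, with replicates 1, 2 and 3 as circle, square and triangle, the mean as a line and the SD as bars. In each panel the 3 ABC libraries sat above the 6 follicular libraries, whose sums averaged 97.6 FPKM in young and 98.2 FPKM in aged libraries.

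Bcl2l1, the gene of BCL-XL, was at 4.37, 5.06 and 4.38 FPKM in ABCs and at 2.51, 1.51 and 2.31 FPKM in FO B (Aged). The groups did not overlap, and the ratio of means was 2.18. Its log2 fold change of 0.86 ± 0.17 (SE, FDR 0.00676) was called with any 1 library left out, at an FDR of 0.00983 to 0.0238, and was 0.89 without ABC replicate 3. In ABCs it was still above at most 23.5% of the genes at 1 FPKM or more, so the change was in a gene of low level. Mcl1 was at 175, 179 and 104 FPKM in ABCs and at 269, 269 and 249 FPKM in FO B (Aged). The ABC libraries were all lower, and replicate 3 was the lowest of the 9 libraries. The log2 fold change was -0.82 ± 0.20 (SE, FDR 0.0168), and it was smaller, at -0.56 (FDR 0.000585), without ABC replicate 3. The call was lost without FO B (Aged) replicate 1 (FDR 0.0598) or replicate 2 (FDR 0.0548), and with no filter on low values (FDR 0.125).

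Bcl2 itself was at 41.0, 44.7 and 66.4 FPKM in ABCs and at 64.1, 68.7 and 57.7 FPKM in FO B (Aged). ABC replicates 1 and 2 were below all follicular libraries, and replicate 3 was within their range. With all 3 ABC libraries, the log2 fold change was -0.35 ± 0.17 (SE, FDR 0.159) with a 95% interval of -0.76 to 0.06. Without ABC replicate 3, it was -0.55 (FDR 0.00343).

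Of the effectors, only Bax was tested, and it was not called. Bax was at 115, 129 and 111 FPKM in ABCs and at 131, 113 and 122 FPKM in FO B (Aged). The groups overlapped, and the 95% interval of the log2 fold change, -0.24 to 0.16, holds at most a small change in either direction. Without ABC replicate 3 the log2 fold change was 0.00056. Bak1 had 5, 6 and 18 reads in ABCs, 12, 32 and 11 in FO B (Aged) and 14, 12 and 9 in FO B (Young), or 0.340 to 1.81 FPKM over the 9 libraries. The libraries of the 3 groups overlapped, and Bak1 was not tested.

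Of the BH3-only genes, Bbc3 was called. PUMA, its product, is a target of p53. Bbc3 had 26, 21 and 25 reads in ABCs against 14, 4 and 7 in FO B (Aged) and 14, 7 and 7 in FO B (Young). The ABC libraries, at 1.79, 1.31 and 1.71 FPKM, did not overlap with 0.975, 0.229 and 0.446 FPKM in FO B (Aged). The log2 fold change was 0.77 ± 0.22 (SE, FDR 0.0313). This call was lost without FO B (Aged) replicate 2 (FDR 0.0883) or replicate 3 (FDR 0.0916), under quantile normalization (FDR 0.0974) and with no filter (FDR 0.103). Without ABC replicate 1 or 3 its mean was under 1 FPKM, and it was not tested. Trp53, the gene of p53, was lower in ABCs and Mdm2, a p53 target and its inhibitor, higher. Mdm2 was named after its value was seen, and a link of p53 to the level of Bbc3 was not tested.

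Bcl2l11, the gene of BIM, was at 7.67, 9.92 and 5.36 FPKM in ABCs and at 10.8, 9.79 and 11.2 FPKM in FO B (Aged). ABC replicate 2 lay within the range of the follicular libraries and the other ABC libraries below it. The log2 fold change was -0.46 ± 0.19 (SE, FDR 0.104) with an unadjusted p from limma of 0.048. Bid, whose product is cut by caspase-8 and links death receptors to mitochondria, had the same order of ABC libraries, at 47.7, 58.6 and 35.3 FPKM against 54.6, 60.2 and 59.8 FPKM (log2 fold change -0.32, FDR 0.17). Both results depended on single ABC libraries. Without ABC replicate 2, the highest, both genes were called lower, Bcl2l11 at -0.64 (FDR 0.0268) and Bid at -0.49 (FDR 0.0348). Without ABC replicate 3, the lowest, the differences shrank to -0.25 for Bcl2l11 (FDR 0.184) and -0.14 for Bid (FDR 0.338). Pmaip1, the gene of NOXA, was at 13.01, 16.8 and 13.01 FPKM against 12.2, 13.4 and 16.2 FPKM, with a log2 fold change of 0.034, a 95% interval of -0.30 to 0.37 and a log2 fold change of 0.092 without ABC replicate 3.

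The shares of the survival genes were computed within each library, as a description with no test. Mcl1 made up 61.1% to 63.0% of the summed FPKM of Mcl1, Bcl2a1b, Bcl2 and Bcl2l1 in FO B (Young) and 64.0% to 65.5% in FO B (Aged), but 46.3%, 47.3% and 36.8% in the ABC libraries. Bcl2a1b made up 18.7% to 20.1% in the 6 follicular libraries and 41.7%, 39.6% and 38.1% in ABCs. Bcl2l1 was at 0.362% to 0.797% in follicular B cells and at 1.16% to 1.55% in ABCs. In ABCs, then, Mcl1 and Bcl2a1b had like shares, with a ratio of Mcl1 to Bcl2a1b of 0.967 to 1.20, compared with 3.08 to 3.50 in the follicular libraries. This ratio was added after the data were seen. The share of Bcl2 was 10.9%, 11.8% and 23.5% in the ABC libraries, the last in replicate 3, and 15.2% to 18.4% in follicular B cells. The summed FPKM of the 4 genes was 378, 379 and 282 in ABCs and 380.1 to 420.0 in the follicular libraries, so that ABC replicates 1 and 2 lay just below the lowest follicular library. The shares and this sum hold only the Bcl2a1b copy, and the split of reads among the copies is uncertain. Over the 3 copies, A1 was at 213, 213 and 171 FPKM in ABCs, above Mcl1 at 175, 179 and 104 FPKM. In the follicular libraries A1 was at 89.0 to 105 FPKM, below Mcl1 at 249 to 269 FPKM. The 4 genes were not summed with all copies, so a lower survival total in ABCs cannot be read from this sum.

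**Figure D3:**
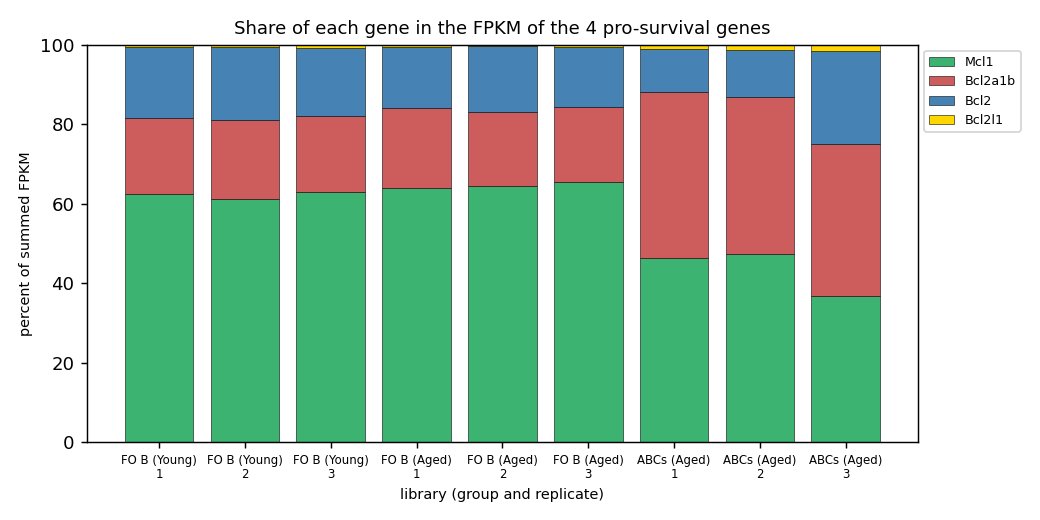
Share of Mcl1, Bcl2a1b, Bcl2 and Bcl2l1 in their summed FPKM, in percent, with 1 bar for each of the 9 libraries. The Mcl1 part was at least 61.1% in the 6 follicular libraries and at most 47.3% in the 3 ABC libraries, where the Bcl2a1b part was between 38.1% and 41.7%.

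Ratios between members within a library were also described without a test. Mcl1 to Pmaip1, the pair of MCL1 and its BH3-only partner NOXA, was 13.4, 10.6 and 8.00 in ABCs and 15.3 to 28.0 in the follicular libraries, without overlap. Bcl2l1 to Bcl2, both survival genes, was 0.107, 0.113 and 0.0660 in ABCs and 0.0220 to 0.0461 in follicular B cells, also without overlap. Bcl2 to Bcl2l11 was 5.35, 4.50 and 12.4 in ABCs and 5.16 to 8.16 in follicular B cells, and Bcl2 to Bax was 0.358, 0.346 and 0.598 against 0.474 to 0.646. In both of these the ABC group overlapped with the follicular groups, and replicate 3 was the library that differed from the other ABCs. These are ratios of RNA and not of protein. MCL1 and NOXA in particular are known to be turned over quickly as proteins.

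Age was compared in follicular B cells. None of the 8 tested members was called by limma between FO B (Aged) and FO B (Young), where 0.464% of 10122 genes were called (0.119% lower), and 1 of the 8 had an unadjusted p under 0.05. This was Bcl2, at 64.1, 68.7 and 57.7 FPKM in aged and 72.0, 75.6 and 69.9 FPKM in young libraries. All aged libraries were below all young ones, with a log2 fold change of -0.19 ± 0.07 (SE, FDR 0.326). The share of all genes with an unadjusted p from limma under 0.05 is not given, so such counts cannot be set against it. Bcl2l1 also did not overlap, at 2.51, 1.51 and 2.31 FPKM against 2.65, 2.57 and 3.22 FPKM, with a log2 fold change of -0.30 ± 0.17 (SE, FDR 0.501). Of all genes tested in this comparison, 18.6% did not overlap, and 8.96% did so with the aged group lower. The 95% intervals of the log2 fold change were -0.06 to 0.17 for Mcl1, -0.18 to 0.15 for Bcl2a1b, -0.15 to 0.19 for Bax, -0.12 to 0.17 for Bid, -0.12 to 0.31 for Bcl2l11 and -0.03 to 0.61 for Pmaip1. Bbc3 and Bak1 were under 1 FPKM on average and were not tested.

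ABCs were also compared with young follicular B cells, a comparison that shares the ABC libraries with the first and differs in both age and cell type. Of 9 tested members, 3 were called higher and 2 lower, where 21.6% of 10438 genes were called higher and 19.1% lower, 40.7% in all. Of the 9, 6 did not overlap between the groups, 4 of them higher in ABCs, beside 55.3% of all genes without overlap and 27.7% higher. Log2 fold changes were 0.79 for Bcl2a1b (FDR 0.00389), 0.56 for Bcl2l1 (FDR 0.0128) and 0.71 for Bbc3 (FDR 0.0201). Bbc3, at a mean of 0.598 FPKM in FO B (Young), passed the filter only through the ABC libraries here too, and without ABC replicate 3 it was not tested. Among the other 8 members, 2 were higher and 2 lower, with a median log2 fold change of -0.16. Mcl1 was lower at -0.76 (FDR 0.0187) and Bcl2 at -0.54 (FDR 0.038). The call of Bbc3 was lost without young replicate 2 (FDR 0.0691) or 3 (FDR 0.0665). With any young library left out, neither Mcl1 nor Bcl2 was called. Bcl2 was also not called without ABC replicate 1 or 2. Bcl2l11, at -0.36 (FDR 0.175), and Bid, at -0.30 (FDR 0.192), were called lower without ABC replicate 2 only. Without ABC replicate 3, Bcl2 was at -0.75 (FDR 0.000189) and Mcl1 at -0.51 (FDR 0.000206), whereas Bcl2l11 was at -0.16 (FDR 0.382) and Bid at -0.11 (FDR 0.407). Bcl2a1b was then at 0.96, Bcl2l1 at 0.58 and Bax at 0.018, the last against -0.025 with all libraries. Pmaip1 was at 12.4, 12.1 and 9.12 FPKM in young libraries, below the 3 ABC libraries, with a log2 fold change of 0.32 (FDR 0.125), or 0.38 (FDR 0.0995) without ABC replicate 3.

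**Figure D4:**
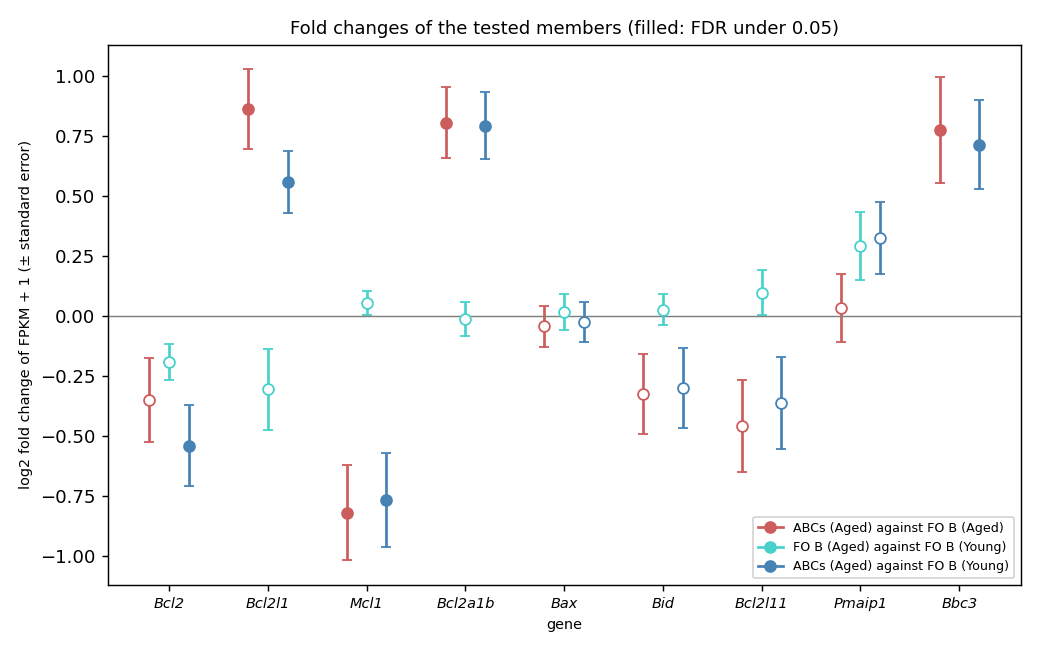
Log2 fold change of FPKM + 1 with its standard error for the tested members in the 3 comparisons, filled where the FDR was under 0.05. The points of aged against young follicular B cells are all open, and both comparisons with ABCs have filled points above 0 for Bcl2l1, Bcl2a1b and Bbc3 and below 0 for Mcl1.

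The other genes of the family were read from a list of 16, of which 10 were tested between ABCs and FO B (Aged). Of these, 5 were higher and 1 was lower, beside 19.4% and 16.5% of all genes tested. But 3 of the 5, Bcl2a1a, Bcl2l15 and Bcl2l14, averaged under 1 FPKM in FO B (Aged) and were tested only because they were high in ABCs. Among the other 7 genes, 2 were higher and 1 lower, and the median log2 fold change was 0.0089 (0.36 with the 3 included), beside -0.011 for all genes. Besides Bcl2a1a and Bcl2a1d, Bcl2l15 rose from 0.218, 0.0572 and 0.423 FPKM in FO B (Aged) to 5.79, 6.63 and 6.88 FPKM in ABCs (log2 fold change 2.60 ± 0.17, SE, FDR 7.04e-05). Bcl2l14 rose from 0.245, 0.553 and 0.560 to 1.21, 1.15 and 3.19 FPKM (log2 fold change 0.91, FDR 0.0451), and without ABC replicate 3 its mean over the libraries was 0.745 FPKM, under the filter. Bad, a BH3-only gene whose protein is held inactive by phosphorylation, rose from 19.3 to 24.5 FPKM in aged follicular B cells to 31.4 to 40.0 FPKM in ABCs (log2 fold change 0.70 ± 0.13, SE, FDR 0.00522). Bnip3, a hypoxia-inducible gene of mitophagy, fell from 22.2, 26.2 and 27.2 to 7.89, 9.78 and 4.85 FPKM (log2 fold change -1.66 ± 0.22, SE, FDR 0.00133).

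Bmf, a BH3-only gene, was at 2.80, 3.16 and 2.28 FPKM in FO B (Young), at 0.361, 1.99 and 0.889 FPKM in FO B (Aged) and at 0.358, 0.847 and 1.15 FPKM in ABCs. It was called lower in ABCs against FO B (Young), at -1.09 ± 0.21 (SE, FDR 0.00614), where it passed the filter only through the young libraries, and it was not called between the follicular groups, whose libraries did not overlap. Against FO B (Young), 5 of 10 tested genes of the list were higher and 2 lower, beside 21.6% and 19.1% of all genes tested. But 4 of these 7, Bmf among them, were tested only through the group where they were high. Among the other 6 tested genes, 2 were higher and 1 lower. Between the follicular groups, none of 7 was called by limma. An unadjusted p from limma under 0.05 was found for 2, with no share of all genes to set beside it.

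Downstream of the family, the list of mitochondrial apoptosis machinery held 20 genes, and all were tested. In ABCs against FO B (Aged), 4 were higher and 4 lower, with a median log2 fold change of 0.072. The share called, 40% of the list, was near the 35.9% of all genes tested. Casp9, the initiator caspase activated through cytochrome c, was at 30.2 ± 7.06 FPKM in ABCs and at 13.1 ± 1.71 FPKM in FO B (Aged) (SD, n = 3), with a log2 fold change of 1.13 (FDR 0.00253). In contrast, Casp6 and Casp2 were lower in ABCs, Casp6 at -0.73 (FDR 0.0049) and Casp2 at -0.64 (FDR 0.0102). Caspases thus changed in both directions. None of the 20 was called by limma between the follicular groups. There 4 had an unadjusted p from limma under 0.05, with no share of all genes to set beside it. Against FO B (Young), 5 were higher and 4 lower, 45% of the list beside 40.7% of all genes tested.

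The list of regulators of the members held 20 genes, of which 18 were tested. In ABCs against FO B (Aged), 3 were higher and 5 lower, beside 19.4% and 16.5% of all genes tested, with a median log2 fold change of -0.050. E2f1, a cell cycle factor, was at 8.44 ± 2.01 against 2.40 ± 0.373 FPKM (SD, n = 3), with a log2 fold change of 1.46 (FDR 0.00104). Fbxw7, whose protein marks MCL1 and MYC for degradation, was higher by 0.61 on the log2 scale (FDR 0.00695). Myc was at 14.3 ± 2.95 against 34.8 ± 1.77 FPKM (SD, n = 3), with a log2 fold change of -1.24 (FDR 0.000862). Trp53 was at 58.2 ± 5.53 against 88.1 ± 1.13 FPKM, with a log2 fold change of -0.59 (FDR 0.00162), and Mdm2 was higher by 0.33 (FDR 0.0051). Tnfrsf13c, the gene of the BAFF receptor, was lower, at -0.51 (FDR 0.00462). None of 18 was called by limma between the follicular groups. There 5 had an unadjusted p from limma under 0.05, with no share of all genes to set beside it. Against FO B (Young), 4 were higher and 4 lower, 44.4% of those tested beside 40.7% of all genes tested.

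**Figure D5:**
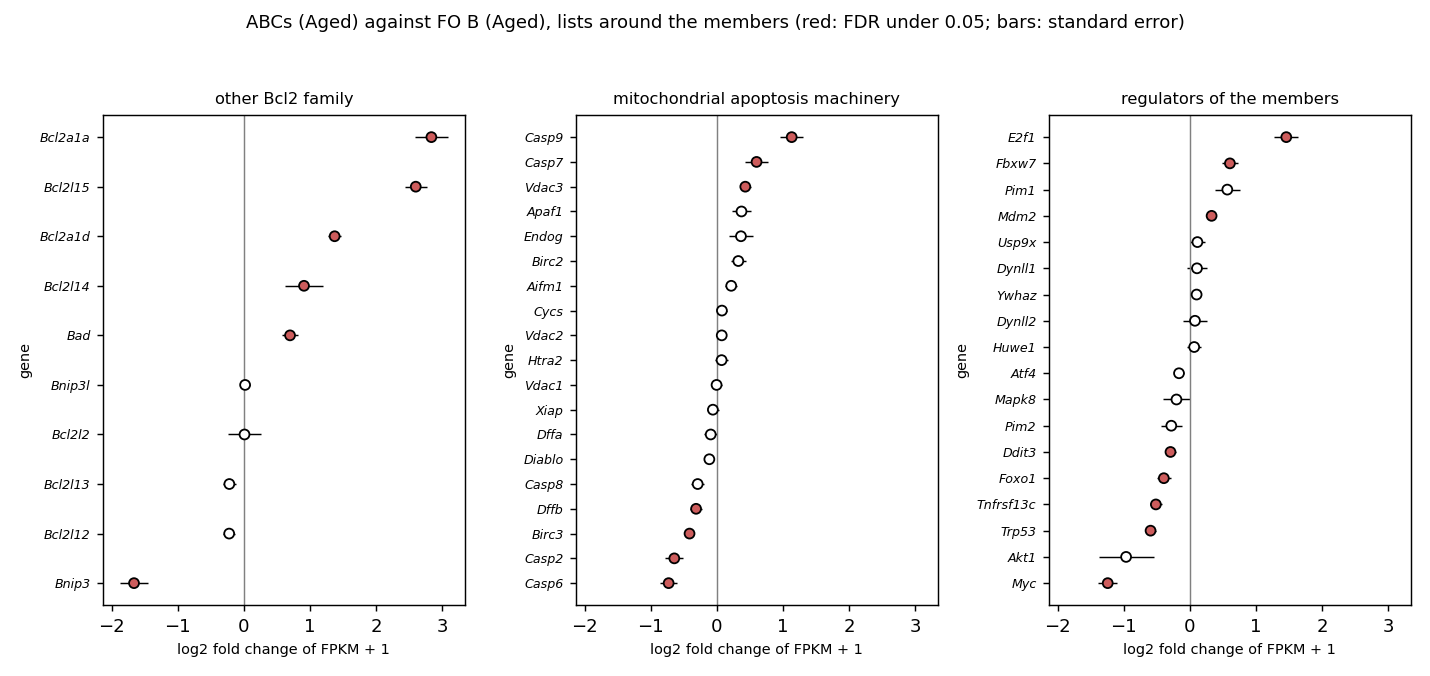
Log2 fold change of FPKM + 1, with standard errors, in ABCs (Aged) against FO B (Aged) for tested genes of the 3 lists around the members, with red points where the FDR was under 0.05. Bcl2a1a, Bcl2l15 and Bcl2a1d have the largest rises of the other family members, and Casp9 lies highest of the genes drawn from the second list, of which 19 are shown, with Casp6 and Casp2 lowest.

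Markers of other cells moved with the ABC group for some lists and not for others, and their part in the results above was not tested. The 8 macrophage and monocyte markers, Cd68 highest, summed to 16.0 to 20.4 FPKM in ABCs, 6.49 to 12.4 FPKM in FO B (Aged) and 8.63 to 22.3 FPKM in FO B (Young), while Csf1r was under 1 FPKM in every library. The 7 neutrophil markers found summed to 2.80 to 4.38 FPKM in ABCs and 2.97 to 26.0 FPKM in follicular libraries, with Elane at 0 throughout. The 6 dendritic cell markers, Batf3 highest, summed to 7.81 to 13.5 against 1.93 to 4.20 FPKM in FO B (Aged). Flt3 of this list went the other way, at a log2 fold change of -0.86 (FDR 0.0862), and was not called. The T cell sum of 5.19 to 38.4 FPKM in ABCs was mostly Cd3g, while Cd3e was at 0.0996, 0 and 0 FPKM, and the NK sum of 27.6 to 38.0 FPKM was mostly Prf1, while Ncr1 was at 0, 0.0882 and 0 FPKM. The 6 plasma cell markers, Mzb1 highest, summed to 976 to 1275 against 443 to 471 FPKM in FO B (Aged). Of these 6, 4 were called higher, beside 19.4% of all genes tested. Markers of germinal center B cells, Fas highest, summed to 116 to 128 against 47.4 to 59.3 FPKM, whereas Bcl6 and Mef2b were lower. The 6 marginal zone markers moved in opposite directions, with Cd9 and S1pr3 higher and Cr2, Notch2 and Myof lower, and their sums, 181 to 242 against 200.2 to 241 FPKM, overlapped. Of 7 cell cycle genes, 4 were higher in ABCs, Birc5, Mki67, Ccnb1 and Top2a, beside 19.4% of all genes tested. The sum of the 7 was 137 to 175 against 123 to 134 FPKM.

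Of the members tested in ABCs against FO B (Aged), Bcl2l1 rose and Mcl1 fell most on the scale of log2(FPKM + 1). With a pseudocount of 0.1, the log2 fold change of Bbc3, at 1.55, was above that of Bcl2l1, at 1.12. The genes with the most similar pattern over the 9 libraries were found by Pearson's correlation of log2(FPKM + 1) among 10375 genes, as a description. For Bcl2l1 they were Per3 (r = 0.967), Tyk2 (r = 0.963) and Ugdh (r = 0.957). For Mcl1 they were Pik3ip1 (r = 0.993), Gpr174 (r = 0.993) and Zfp318 (r = 0.992). The libraries fall into 2 cell types, so any gene that differs between them gives a high value.

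On mm10, with the GENCODE M21 annotation, all 10 members are annotated as protein-coding. Bcl2 spans chr1:106538178-106714274 on the minus strand, Bcl2l1 chr2:152780668-152831728 on the minus strand, Mcl1 chr3:95658788-95663176 on the plus strand and Bcl2a1b chr9:89199209-89207827 on the plus strand. Bax spans chr7:45461697-45466898 on the minus strand and Bak1 chr17:27019810-27029009 on the minus strand. Bcl2l11 spans chr2:128126038-128162547 on the plus strand, Bbc3 chr7:16308393-16318205 on the plus strand and Bid chr6:120891930-120916853 on the minus strand, and Pmaip1 lies on chromosome 18. Overlapping genes limit some values, since the library kit does not mark the strand. Bcl2 overlaps the antisense gene D630008O14Rik, Bid overlaps Bcl2l13 and Bak1 overlaps Ggnbp1, each on the other strand. Ggnbp1 was at 0.253 to 1.70 FPKM, near the level of Bak1. Gm29094 on the strand of Bcl2a1b raised its share of stretches found elsewhere to 56.8%, and Bax shared 9.49% of its stretches with Gm45808. The other members shared none. D630008O14Rik, Gm29094 and Gm45808 were not among the genes listed for the libraries, so no level of them can be given.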

How the data were processed

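The authors sorted B cells, amplified full-length cDNA by SMART-Seq HT, built Nextera libraries that keep no strand, sequenced single-end reads on a NovaSeq, mapped them to mm10, and deposited 1 FPKM value per gene symbol and library. The submitters' processing notes name TopHat2 2.1.1, Bowtie2 2.2.8, SAMtools 0.1.18 and Cuffdiff 2.2.1, in part other versions than the methods. The gene annotation is not given in the sources used here. Groups and replicate numbers came from the sample titles.

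From the FPKM values, the log2 of FPKM + 1 was modelled by limma 3.58.1 under R 4.3.3, with lmFit and eBayes (trend), in the 6 libraries of the groups compared, with genes that averaged 1 FPKM or more, no block and Benjamini-Hochberg adjustment over all genes tested. Fold changes are on this scale and are too small for low genes. For each member, the difference of means was also put to an exact permutation test, two-sided, with 20 orders and thus a smallest p of 0.1, which every member without overlap reached. On simulated data for ABCs against FO B (Aged), with 10142 genes tested, limma called 178 of 200 changed genes and 5 unchanged genes. It called 81 of 100 at a log2 change of 1 and 97 of 100 at 2. Changed genes were drawn only from those above 2 on the log2 scale in FO B (Aged), with 1 pooled spread per gene for all groups. The rates therefore do not cover lower genes such as Bcl2l1 and Bbc3, or a spread that differs between groups. Whole reads were recovered for low genes whose FPKM values were multiples of 1 step within 0.05 reads. They were used to give the depth behind low values, not for a test. Python 3.11.15, numpy 2.4.6, pandas 2.3.3, scipy 1.17.1 and matplotlib 3.10.9 were used otherwise.

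The members and lists were chosen with earlier results of these data known. Named were all members, all called genes of the other family list, up to 4 called genes with the largest changes of each other list, and the 3 genes most alike in pattern to the 2 members that changed most. Mdm2, Tnfrsf13c and, for their use as sort or cell markers, single marker genes were named after their values were seen. The alternatives were other pseudocounts, filters, scalings, fits and thresholds, and leaving out each library. The sum of the 3 Bcl2a1 copies was added after the data were seen. A gene of the machinery list is counted there but not reported here by name, and a marker of the sort is likewise not reported here.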

Additional observations from a re-analysis of the deposited data

How the results depend on the processing

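Between the follicular groups, limma called 0 members and 0 genes of the 3 lists in either direction under every alternative run. In ABCs against FO B (Aged), the 3 members called higher became 1 with no filter on low values (Bcl2l1) and 1 with a mean of at least 5 FPKM (Bcl2a1b), and the 1 called lower became 0 with no filter. At an FDR under 0.01 the count of lower members was 0. Against FO B (Young), the 3 higher members became 1 with a mean of at least 5 FPKM and 1 at an FDR under 0.01, and the 2 lower members became 0 with no filter, 0 at an FDR under 0.01 and 1 without a trend. With an FDR under 0.01 and an absolute log2 fold change above 2.3, 0 members were called higher and 0 lower in both comparisons with ABCs. On leaving out each library in turn, the counts of lower members ranged from 0 to 3 in both, and those of higher members from 2 to 3. Fewer genes are tested with the higher filter. The cause of the other changes was not tested.

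For the other family, 5 genes were higher in both comparisons with ABCs, and 2 with a mean of at least 5 FPKM or at the strictest thresholds. The 1 lower gene against FO B (Aged) became 0 at the strictest thresholds, and the 2 against FO B (Young) became 1 with a mean of at least 5 FPKM and 0 at the strictest thresholds. For the machinery against FO B (Aged), the 4 lower genes became 2 with no filter and 2 at an FDR under 0.01. Against FO B (Young), the 5 higher genes became 3 with no filter and 3 at an FDR under 0.01, and 3 to 6 with each library left out, while the 4 lower became 1 with no filter, 2 at an FDR under 0.01 and 2 to 4 with each library left out. For the regulators against FO B (Aged), the 5 lower genes became 3 with no filter, 3 at an FDR under 0.01 and 3 to 5 with each library left out. Against FO B (Young), the 4 lower became 2 with no filter. At the strictest thresholds, 0 genes of the machinery and 0 regulators were called higher or lower in either comparison.

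Signs that turned were of differences near 0 that were not called. In ABCs against FO B (Aged), the log2 fold change of Bax ranged from -0.11 to 0.0080 with each library left out, and that of Pmaip1 from -0.082 to 0.14, with -0.00043 after scaling to TPM. In ABCs against FO B (Young), Bax ranged from -0.090 to 0.033. Between the follicular groups, Bax ranged from -0.033 to 0.076, with -0.011 under quantile normalization, Bid from -0.0098 to 0.070 and Bcl2a1b from -0.074 to 0.050. The sum of the 3 Bcl2a1 copies gave 0.0058 there. With each library left out it was 0.036 and 0.074 without young replicate 2 or aged replicate 3, and -0.00014, -0.018, -0.041 and -0.015 without the others, so its sign was not stable.

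Whether the replicate numbers pair the samples could not be told from the labels or from the values. The deviations of same-numbered ABC and FO B (Aged) libraries from their group means correlated at 0.0845, -0.019 and 0.108 over 10375 genes, and not every library correlated best with its own number. With the number as a block, the count of lower members in ABCs against FO B (Young) was 1 instead of 2, and the other counts of members were as without it. Depth limits Bak1, Bbc3 and Bcl2a1a, whose values rest on at most 48 reads per library.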
